A study of Mus musculus with 7 samples.

Results

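The 37 genes described here act in homologous recombination and in the Fanconi anaemia pathway. They were named as a list by their function, the rule uses no measured value, and all 37 were found among the 16143 genes of the deposited transcript tables. The tables come from retina explants of ICR mice, an outbred stock, taken at embryonic day 17.5. In both groups the explants were electroporated together with a plasmid for EGFP and cultured for 2 days at 34 °C, after which EGFP-positive cells were sorted and 1 ng of total RNA was made into cDNA with SMART-Seq v4. The control group (3 libraries) received a control plasmid and the shKmt2f group (4 libraries) a plasmid for a short hairpin RNA against Kmt2f, another name of the histone H3 lysine 4 methyltransferase gene Setd1a. The sort selected EGFP and not the hairpin itself. No tie of a library to an animal or culture is given, so a p-value here measures the spread between libraries, which may be technical.

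Homologous recombination repairs broken DNA by copying the sister chromatid, and so works mainly in cells that are copying or have copied their genome. Ends are sensed and trimmed by the MRE11-RAD50-NBN complex with CtIP, BRCA1 and BRCA2 prepare the resected strand for exchange with the sister, and RAD52 and RAD54 proteins assist that exchange. The Fanconi proteins find crosslinked DNA at stalled forks, attach ubiquitin to the FANCI-FANCD2 pair, and hand the lesion to nucleases and to recombination. In the embryonic retina, dividing progenitors are the cells that copy DNA, and newborn neurons and photoreceptor precursors have left the cell cycle.

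Levels are in TPM, a share of a library's transcripts corrected for length, summed over the transcripts of a gene. The longest listed Setd1a transcript, of 6487 bases, was at 0.767, 0.959 and 0.764 TPM in the control libraries and at 0.407, 0.328, 0.374 and 0.432 TPM in the shKmt2f libraries, with no overlap (exact permutation test, p = 0.0286, the smallest that 35 splits can give). The sum over all Setd1a transcripts overlapped between the groups (log2 difference -0.33, SE 0.23, limma adjusted p = 0.365). Between 11840 and 12318 genes reached 1 TPM in a library. TPM keeps no depth, so the read number behind each value is unknown.

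Of the 36 genes of the set that reached 1 TPM in at least 3 libraries, 1 rose and 1 fell in shKmt2f libraries at a limma adjusted p under 0.05. That is 5.56% of those tested, where the same fit called 14.1% of all 12456 genes tested, 10.4% higher and 3.69% lower. Leaving out single libraries moved the count over all genes from 1755 to 3004 without control replicate 2 and to between 283 and 519 without any other library. Rdm1, which encodes a RAD52 motif protein, fell, and Fancm, the DNA translocase that anchors the Fanconi core complex, rose. The median difference of the set was -0.02 on the log2(TPM + 1) scale, where the median of all genes was 0.09, and 27 of the 36 differed by less than 0.5 in either direction. The group ranges did not overlap in 7 of the 36 (19.4%), where they did not in 28.9% of all genes tested. In bulk RNA, fewer cells of a type and less RNA per cell cannot be told apart.

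**Figure D1:**
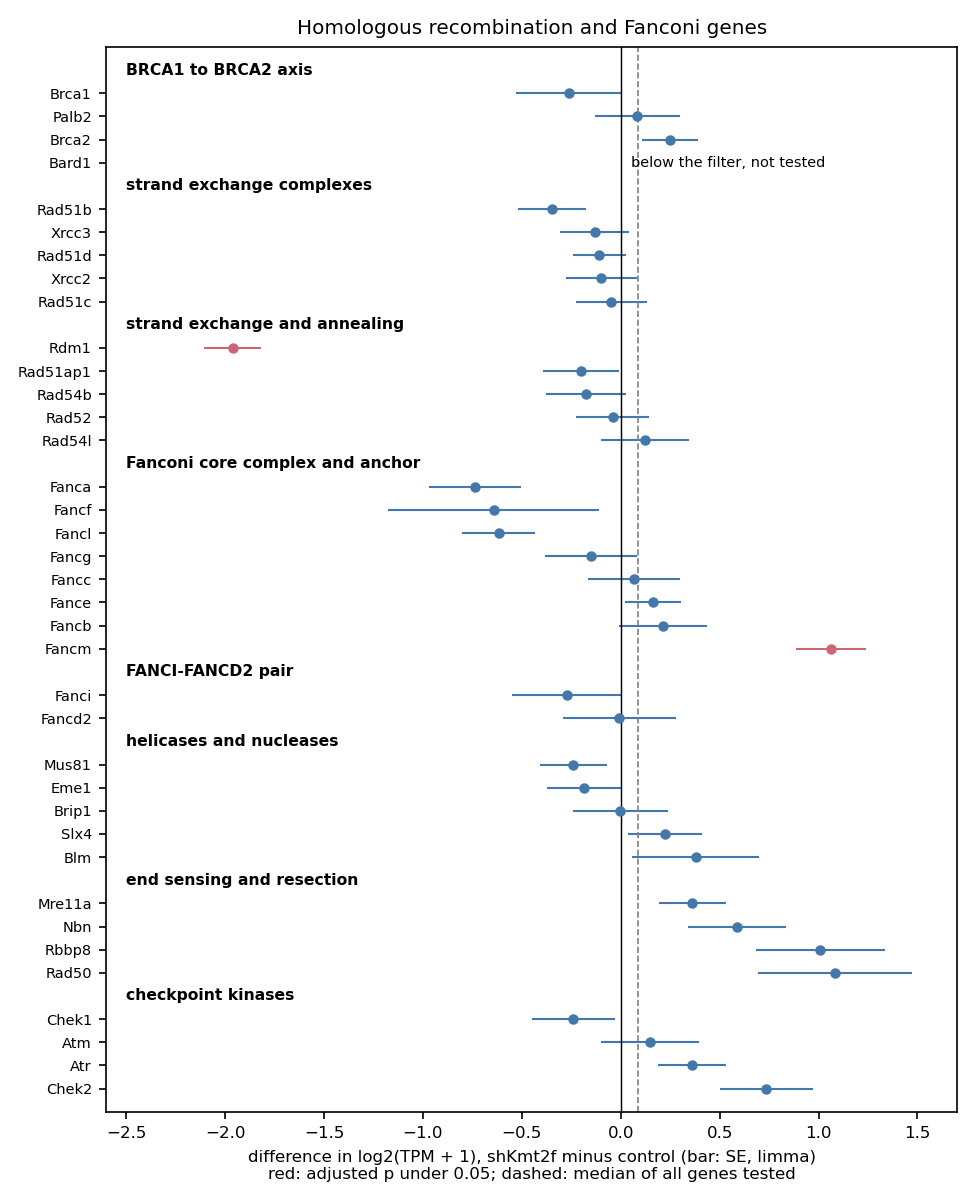
Difference in log2(TPM + 1) between shKmt2f (n = 4) and control (n = 3) libraries for each gene, by role; points are limma estimates, bars their SE, and red marks an adjusted p under 0.05. Rdm1 at -1.96 and Fancm at 1.06 are the red points, and the 4 end sensing and resection genes all lie right of 0 in this fit, in which GC content is not corrected (Mre11a is at -0.10 after that correction).

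Rdm1 (ENSMUSG00000010362) occupies chr11:101627195-101636100 of GRCm38, plus strand. It encodes a protein named for a motif that resembles part of the annealing protein RAD52. Loss of it in chicken cells is known to sensitise them to the crosslinking drug cisplatin. Its summed level was 51.0, 37.9 and 46.1 TPM in control replicates 1 to 3 and 9.74, 12.3, 10.5 and 10.5 TPM in shKmt2f replicates 1 to 4. The lowest control library was thus above the highest shKmt2f library, and the shKmt2f mean was 23.9% of the control mean (45.0 ± 6.63 against 10.8 ± 1.10 TPM, SD, n = 3 and 4). The difference was -1.96 on the log2(TPM + 1) scale (SE 0.15, limma adjusted p = 0.000943). Rdm1 stayed past the threshold in all 18 alternative fits, from -1.62 to -2.08.

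The decline was seen in each Rdm1 transcript of some abundance. The tables list 3 such transcripts, of which the coding Rdm1-201 has 1124 bases and 7 exons. Rdm1-204 has 434 bases (384 shared with Rdm1-201) and Rdm1-205 has 463 bases (398 shared). Most bases of each short model are thus shared with Rdm1-201, while most of Rdm1-201 lies outside each of them. Shown here are stretches where the short models depart from Rdm1-201, since reads crossing them help to tell the transcripts apart. Each line gives 40 bases on the plus strand, in lower case what precedes the shared exon and in capitals the first 20 bases of that exon.
Rdm1-201, exon 1 into exon 2: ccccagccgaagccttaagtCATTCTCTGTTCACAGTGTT
Rdm1-204, exon 1 into exon 2: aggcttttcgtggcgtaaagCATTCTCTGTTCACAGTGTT
Rdm1-201, exon 4 into exon 5: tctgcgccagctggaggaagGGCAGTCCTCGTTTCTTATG
Rdm1-205, intron into exon 5: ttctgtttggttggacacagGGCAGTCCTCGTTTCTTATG
Rdm1-204 starts from another first exon, which ends at chr11:101627225-101627244 in place of chr11:101628045-101628064. Rdm1-205 begins inside the intron before exon 5, whose last bases are chr11:101633782-101633801. The sequences are from the GENCODE mouse transcripts of GRCm38.

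Coding Rdm1-201 was at 11.6, 9.67 and 13.4 TPM in control libraries and at 2.32, 2.27, 2.74 and 2.74 TPM in shKmt2f libraries. Rdm1-204 was at 22.3, 14.2 and 18.5 TPM against 4.12, 5.52, 3.57 and 4.86 TPM. Rdm1-205 was at 16.6, 13.2 and 13.3 TPM against 3.03, 4.23, 3.77 and 2.91 TPM. None of the 3 overlapped between groups. Their log2(TPM + 1) differences were -1.83, -1.80 and -1.78, with limma adjusted p of 0.00801, 0.0121 and 0.00846 over 37024 transcripts, of which 2.24% were called. Without control replicate 1 the adjusted p of Rdm1-204 was 0.0513. In the authors' deposited table the q-values of the same 3 transcripts were 7.69e-21, 3.45e-07 and 3.01e-05, in the same order. None of them matched another gene's transcript over 100 bases or more at 90% identity.

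None of the protein-coding neighbours within 50000 bases of Rdm1 that entered the fit was called lower with it. Nbr1, an autophagy receptor gene upstream of it, rose by 0.85 on the log2(TPM + 1) scale (SE 0.15, limma adjusted p = 0.0170), from 704 ± 142 to 1254 ± 128 TPM (SD). Arl4d downstream differed by -0.10 (SE 0.15, adjusted p = 0.674). Brca1 lies on the other side of Nbr1, at chr11:101488764-101551955 on the minus strand, and is described below among genes that did not pass.

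Fancm (ENSMUSG00000055884) occupies chr12:65075603-65132058, plus strand. FANCM binds branched DNA at stalled forks and recruits the other core proteins. Its summed level was 7.38, 8.02 and 8.33 TPM in control libraries and 17.9, 20.7, 12.9 and 19.9 TPM in shKmt2f libraries. The controls lay within 1 TPM of each other and below every shKmt2f library. The difference was 1.06 on the log2(TPM + 1) scale (SE 0.18, limma adjusted p = 0.0144). It was 0.74 (adjusted p = 0.0405) after correction for GC content and 1.02 (adjusted p just above the threshold, 0.05005) without control replicate 1. When the tested genes were split by GC content into 5 bins of equal size, Fancm was in the lowest bin, where 29.4% of genes rose, against 1.77% in the highest bin. The part of GC content in its rise was not tested beyond that correction. Fancm exons share 575 bases with Gm47870 on the opposite strand, whose reads cannot be told apart there.

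Most Fancm signal sat on a short transcript model. Fancm-204, of 325 bases and annotated as coding, held 58.7% of the gene's TPM and is made of bases that Fancm-201, of 7775 bases, also holds. It is set apart by skipping exon 10 of Fancm-201, as these junctions show, with the bases after the junction in capitals (both start from chr12:65095886-65095905).
Fancm-201, exon 9 into exon 10: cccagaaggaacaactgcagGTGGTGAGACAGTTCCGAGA
Fancm-204, exon 3 into exon 4: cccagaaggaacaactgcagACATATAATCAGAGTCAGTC
Fancm-204 was at 4.78, 4.07 and 5.82 TPM in control and 11.1, 11.9, 7.78 and 10.5 TPM in shKmt2f libraries (limma adjusted p = 0.0486, log2 difference 0.94). That call was lost without any single library other than control replicate 2 (adjusted p = 0.0771 to 0.133 by limma), without the filter (0.0675), and with a pseudocount of 0.1 (0.0567). Fancm-201 was at 0.325, 0.918 and 0.371 TPM in control and 1.37, 1.42, 1.5 and 1.22 TPM in shKmt2f libraries (log2 difference 0.65, adjusted p = 0.11). Both were higher in every shKmt2f library, and so was a retained-intron transcript of 1682 bases. In the authors' deposited table the q-value of the retained-intron transcript was 0.0316, and those of Fancm-204 and Fancm-201 were 0.476 and 0.426. Of the bases of the retained-intron transcript, 34.3% match a transcript of another gene. The neighbour Prpf39, a splicing factor gene upstream on the same strand, also rose by 1.16 (SE 0.20, adjusted p = 0.0156), and Fkbp3 differed by -0.10 (adjusted p = 0.662).

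**Figure D2:**
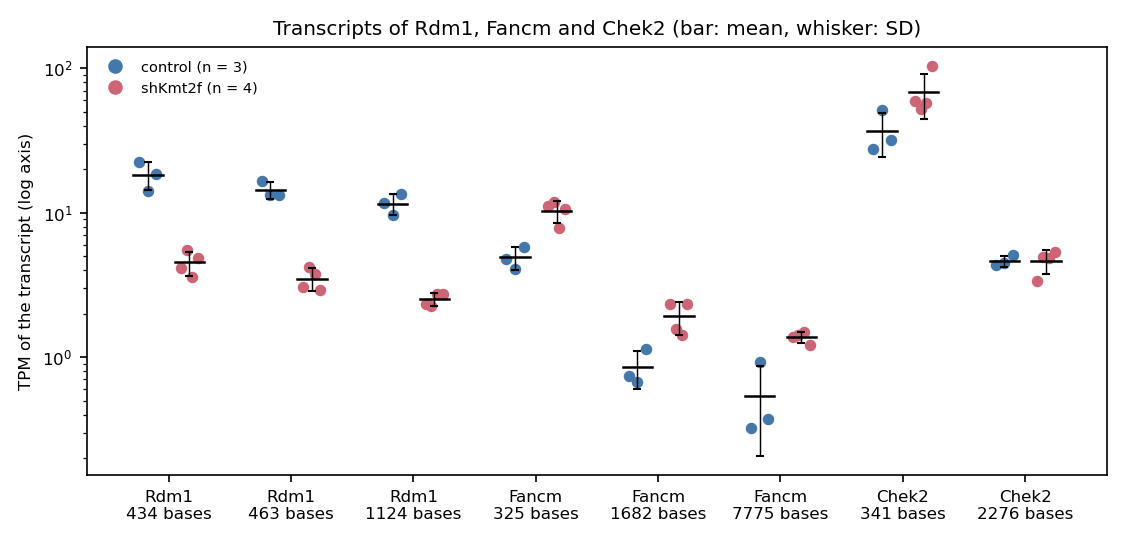
TPM on a log axis of single transcripts of Rdm1, Fancm and Chek2 by library; bars are means and whiskers SD over 3 control or 4 shKmt2f libraries. The 3 Rdm1 transcripts are lower and the 3 Fancm transcripts higher in every shKmt2f library, whereas the Chek2 transcript of 341 bases is higher and that of 2276 bases overlaps.

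The BRCA1 to BRCA2 axis acts on resected DNA, and none of its 3 tested genes passed. Brca1, a ubiquitin ligase subunit and tumour suppressor gene, was at 2.69, 3.87 and 3.45 TPM in control and 2.40, 4.88, 2.11 and 1.67 TPM in shKmt2f libraries (limma adjusted p = 0.537). The shKmt2f libraries spread on both sides of the controls. Brca2, a tumour suppressor gene needed for strand exchange, was at 7.11, 9.25 and 7.90 TPM against 9.41, 9.45, 9.41 and 10.7 TPM (log2 difference 0.25, adjusted p = 0.265). These ranges did not overlap, but control replicate 2 lay within 0.2 TPM of the lowest shKmt2f library, and the 10517-base coding Brca2 transcript held only 3.35% of the sum. Palb2, the bridge between both, averaged 4.29 ± 1.16 and 4.60 ± 1.08 TPM (SD).

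Bard1, the ligase partner of BRCA1, did not reach 1 TPM in any library and was outside the fit. Its single listed transcript was at 0.334, 0.280 and 0.298 TPM in control libraries and at 0.170, 0.165, 0.0865 and 0.191 TPM in shKmt2f libraries. All 4 shKmt2f values were below all control values, and the mean was 50.3% of the control mean (exact permutation test on log2(TPM + 0.1), two-sided, p = 0.0286). In the authors' deposited table its q-value was 0.0445.

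**Figure D3:**
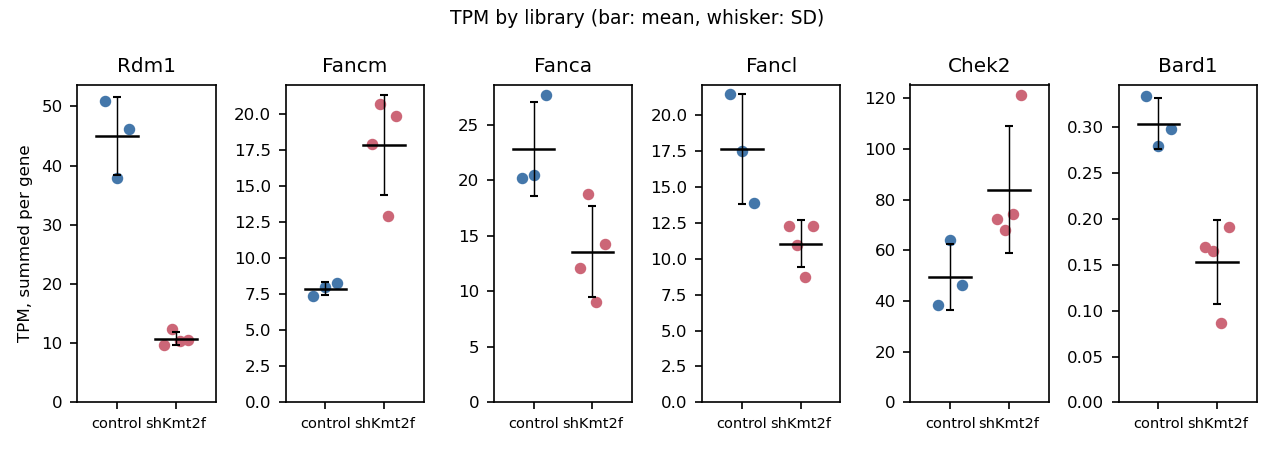
Summed TPM by library for 6 genes, each on its own axis from 0; bars are means and whiskers SD (control n = 3, shKmt2f n = 4). The groups do not overlap in any of the 6, which holds for 28.9% of all genes tested and 19.4% of the tested genes of the set. Only Rdm1 and Fancm passed the adjusted threshold in the fit over all genes, which did not include Bard1.

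The genes Rad51b, Rad51c, Rad51d, Xrcc2 and Xrcc3, whose products form complexes that assist strand exchange, differed by -0.05 to -0.35 and none passed. The largest difference was that of Rad51b, at 14.2, 11.7 and 14.0 TPM in control and 8.24, 9.58, 10.7 and 12.9 TPM in shKmt2f libraries (limma adjusted p = 0.197). shKmt2f replicate 4 lay within the control range. Rad51c, at 2.23 ± 0.515 and 2.12 ± 0.434 TPM (SD), differed least, and Rad51d, Xrcc2 and Xrcc3 differed by -0.11, -0.10 and -0.13.

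Beside Rdm1, the strand exchange and annealing genes stayed within their spread. Rad54l, a motor protein gene that drives strand invasion, was at 21.8, 30.5 and 29.2 TPM against 24.9, 22.5, 31.4 and 41.9 TPM (adjusted p = 0.746 by limma). A noncoding transcript of 209 bases held 71.6% of that sum. The exons of Rad54l share 1184 bases with Lrrc41 on the opposite strand, at a mean of 104 TPM. Rad54b, its paralog, which shares 2068 bases with Fsbp on its own strand, differed by -0.18, Rad52, which anneals single strands, by -0.04, and Rad51ap1, whose product stimulates strand exchange, by -0.20. Rad51ap1 was highest in control replicate 2, at 17.7 TPM.

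Of the Fanconi core genes other than Fancm, Fanca and Fancl were lower in every shKmt2f library without passing the fit. Fanca, which encodes a scaffold of the core complex, was at 20.2, 20.5 and 27.7 TPM in control and 12.1, 18.8, 9.07 and 14.3 TPM in shKmt2f libraries. The gap between the groups was under 2 TPM, and the difference was -0.74 (SE 0.23, limma adjusted p = 0.0658). It passed with median-ratio scaling (-0.86, adjusted p = 0.0297). Fanca shares 920 exonic bases with Zfp276 on the opposite strand, a gene at a mean of 108 TPM, and SMART-Seq v4 does not keep the strand, so their reads there cannot be told apart.

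Fancl encodes the ligase that attaches ubiquitin to FANCD2. It was at 21.5, 17.5 and 13.8 TPM in control and 12.3, 10.9, 8.76 and 12.3 TPM in shKmt2f libraries, again without overlap (difference -0.62, SE 0.18, limma adjusted p = 0.0574). After GC correction it was -0.93 with an adjusted p of 0.0211. The authors' deposited table gives q-values of 0.0112 for 1 Fanca transcript of 2355 bases and 0.0348 for 1 Fancl transcript of 1187 bases, both with negative effects. Fancl shares 462 exonic bases with Vrk2 on the opposite strand, a gene at a mean of 5.46 TPM.

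The remaining core genes were Fancb, Fancc, Fance, Fancf and Fancg, with adjusted p from 0.449 to 0.874. Fancf, an adaptor gene without introns, varied most, at 3.05, 2.96 and 6.79 TPM in control and 0.467, 1.11, 4.34 and 5.37 TPM in shKmt2f libraries. Fance, which contacts FANCD2, was the most abundant core gene at 61.7, 68.1 and 82.6 TPM against 85.8, 87.7, 66.3 and 77.7 TPM. Its leading transcript, of 398 bases and 40.1% of the sum, shares a 126-base stretch with transcripts of 1165 other genes at 90% identity or more. The level of Fance as a gene is therefore uncertain.

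The FANCI-FANCD2 pair, the clamp that receives ubiquitin, and the helicase and nuclease genes did not pass. Fancd2 was at 3.06, 2.47 and 3.14 TPM in control and 1.32, 4.29, 2.48 and 4.19 TPM in shKmt2f libraries, so the shKmt2f values lay on both sides (difference -0.01). Fanci differed by -0.27 (adjusted p = 0.539) and shares 921 exonic bases with the mitochondrial polymerase gene Polg. Mus81, a nuclease gene for branched DNA and the most abundant of its group, was at 62.0, 61.5 and 89.7 TPM against 52.1, 72.3, 56.3 and 57.4 TPM. Its partner Eme1 differed by -0.18, the scaffold Slx4 by 0.22, the helicase Brip1 by -0.0026 and the helicase Blm by 0.38.

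The 4 end sensing and resection genes were the role with the highest median, 0.80, and all 4 had positive differences, though none passed. Rad50, whose coiled-coil protein tethers DNA ends, was at 1.34, 6.83 and 1.86 TPM in control and 6.97, 9.06, 7.21 and 5.01 TPM in shKmt2f libraries (difference 1.08, SE 0.39, limma adjusted p = 0.0945). Rbbp8, which encodes CtIP, was at 2.05, 6.90 and 2.07 TPM against 8.16, 8.15, 5.98 and 7.68 TPM (1.01, SE 0.33, adjusted p = 0.0709). Nbn was at 4.61, 10.8 and 5.55 TPM against 10.1, 10.4, 9.23 and 11.9 TPM (0.59, SE 0.25, adjusted p = 0.141). In each of the 3 genes, control replicate 2 lay inside the shKmt2f range and the other controls far below it. Mre11a, the nuclease gene, was at 26.8, 38.4 and 39.4 TPM against 41.6, 54.5, 40.3 and 42.7 TPM, with a gap of under 1 TPM between the groups (0.36, SE 0.17, adjusted p = 0.181). All 4 genes were in the lowest of the 5 GC bins, where 29.4% of genes rose. After GC correction the direction of Mre11a turned (-0.10), and the differences of Nbn, Rbbp8 and Rad50 were 0.34, 0.66 and 0.76.

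**Figure D4:**
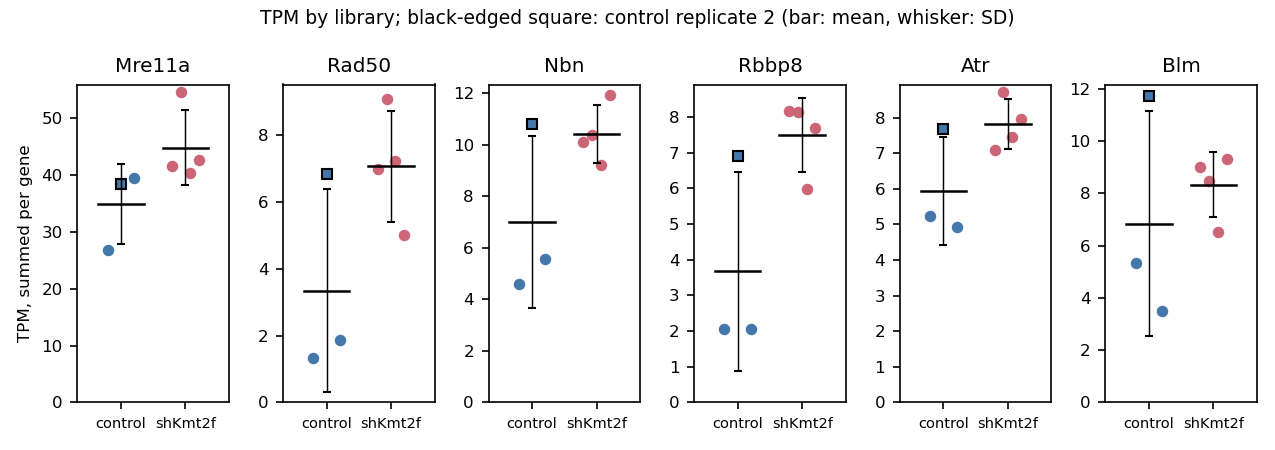
Summed TPM by library for the 4 end sensing and resection genes and for Atr and Blm, each axis from 0; bars are means and whiskers SD (control n = 3, shKmt2f n = 4). Control replicate 2, the black-edged square, is at or above the lowest shKmt2f library for Rad50, Nbn, Rbbp8, Atr and Blm and the other controls lie below every shKmt2f library.

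Control replicate 2 was the only control at or above the lowest shKmt2f library in 6 of the 36 genes tested (16.7%). These were Blm, Rad50, Nbn, Rbbp8, Atm and Atr, and in Blm it was above every shKmt2f library. The share among all genes tested was 11.2%. No gene of the set placed control replicate 1 or control replicate 3 in this way, which 1.08% and 9.39% of all genes did. Without control replicate 2, 7 genes of the set passed as higher (Atr, Blm, Chek2, Fancm, Nbn, Rad50 and Rbbp8) and Rdm1 as lower, when the share called of all genes was 24.3%, and 19.7% higher. Rbbp8 then differed by 1.47 and Rad50 by 1.62 (limma adjusted p = 0.00129 and 0.00241). Both were named above for the place of the library left out, so its removal favours a small p and these values add no support. Control replicate 2 also had the highest sum of the 12 photoreceptor markers among controls, 804 TPM, beside 577 and 700 TPM in the others and 1091 to 1425 TPM in shKmt2f libraries. Its neuron marker sum, 533 TPM, was the highest among controls too. Its end joining gene sum, 117 TPM, was nearest the shKmt2f libraries as well, beside 91.8 and 105 TPM in the other controls and 119 to 139 TPM in shKmt2f libraries. The progenitor and replication lists did not place it nearest the shKmt2f libraries. Its progenitor marker sum, 2084 TPM, lay between 1816 and 2397 TPM in the other controls. Its replication gene sum, 1976 TPM, was the highest of all libraries, beside 1400 to 1728 TPM in shKmt2f libraries. The part of this library or of its cell types in the end sensing genes was not tested.

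Among the checkpoint kinase genes, Chek2 had the largest difference. CHK2 passes the signal of broken ends from ATM to the cell cycle. Chek2 was at 38.5, 63.9 and 46.5 TPM in control and 72.2, 68.0, 74.3 and 121 TPM in shKmt2f libraries, with no overlap (0.74, SE 0.23, limma adjusted p = 0.0671). Most of it lay in a noncoding transcript of 341 bases, at 27.6, 51.0 and 31.9 TPM against 59.3, 52.0, 57.6 and 103 TPM, which holds 78.9% of the sum. Of its 341 bases 156 are shared with the coding transcript, and 48.4% match transcripts of other genes. The coding transcript of 2276 bases was at 4.32, 4.48 and 5.05 TPM against 3.36, 4.94, 4.87 and 5.34 TPM, a difference of -0.01 (adjusted p = 0.983).

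The other checkpoint kinase genes did not pass. Atr, which answers exposed single strands, was at 5.23, 7.69 and 4.93 TPM against 7.10, 8.72, 7.47 and 7.98 TPM (0.36, adjusted p = 0.189 by limma). Atr is also in the lowest GC bin, and its difference turned to -0.21 after GC correction and to -0.35 with correction for GC and length. With coding transcripts only it rose by 0.70 (limma adjusted p = 0.0413), and its coding transcript of 8056 bases, at 0.743 to 1.21 TPM in control and 1.76 to 2.46 TPM in shKmt2f libraries, did not overlap. Atm differed by 0.15 and Chek1, the kinase gene downstream of ATR, by -0.24. Chek1 was at 9.48, 15.7 and 10.5 TPM in control and 7.38, 11.7, 10.1 and 10.1 TPM in shKmt2f libraries, which overlap.

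Short transcript models carry most of these sums. Of the TPM of the set, 71.2% was on transcripts under 1000 bases, much as for all transcripts other than pseudogenes (70.2%), and 38.2% was on transcripts annotated as coding. The share under 1000 bases lay between 69.7% and 72.4% in every library. Of 105 transcripts of the set with a mean of at least 1 TPM, 35 matched a transcript of another gene over at least 100 bases. When the longest listed coding transcript stood for each gene, a choice made after the values were seen, 1 of 35 passed, Rdm1, where 3.54% of all such transcripts did. The longest transcripts of 7 genes did not overlap between groups (20%, against 23.7% of all): higher for Fancm and Mre11a, lower for Rdm1, Fancl, Fanca, Bard1 and Eme1. In the authors' deposited table, 8 of the 199 transcripts of the set had a q-value under 0.05, 4.02%, where 5.52% of all transcripts did. They belong to Rdm1 (3), Fanca, Fancl, Bard1, Fancm and Mre11a.

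Many of these genes are known to be driven in S phase by E2F factors, so the promoters were searched on both strands in RefSeq windows of GRCm38.p6 from 250 bases before to 50 after the start. Of the 37 genes, 29 had a window, 32 windows in all. An E2F-type word (TTTCCCGC, TTTCGCGC, TTTGCCGC or TTTGGCGC) was in 18.8% of the windows of the set and 2.26% of all 32851 windows. A CCAAT word was in 62.5% and 37.4%, and a CHR word (TTTGAA) in 9.38% and 17.9%. No searched word contains another, and a match is a description of letters only. The E2F-type words lie in 5 genes, shown with the word or its reverse complement in capitals and 10 bases on each side, on the strand of the gene.
Bard1, chr1:71103164-71103191, minus strand: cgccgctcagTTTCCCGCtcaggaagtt
Brca2, chr5:150522443-150522470, plus strand: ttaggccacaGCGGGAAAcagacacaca
Chek2, chr5:110839821-110839848, plus strand: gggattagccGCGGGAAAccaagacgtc
Fancg, chr4:43010336-43010363, minus strand: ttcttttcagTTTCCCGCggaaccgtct
Rad51c, chr11:87404478-87404505, minus strand: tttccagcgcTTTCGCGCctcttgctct
Rad51c, chr11:87404942-87404969, minus strand: ccccgcgaggGCGGGAAAagcaaggggt
None of the 5 passed the fit over all genes, and Bard1 was below its filter. The 250 bases before the Fancm start, chr12:65075353-65075602, hold no E2F-type word and a single CCAAT word, in capitals, 63 bases before the start.
Fancm: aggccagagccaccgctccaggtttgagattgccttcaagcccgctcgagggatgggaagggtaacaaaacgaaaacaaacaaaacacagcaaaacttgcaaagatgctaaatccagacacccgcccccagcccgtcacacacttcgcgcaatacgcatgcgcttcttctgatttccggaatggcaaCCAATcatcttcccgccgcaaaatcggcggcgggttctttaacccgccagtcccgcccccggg

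Of 61 other genes of the pathway tested, 1 rose and 2 fell (4.92%), with a median difference of 0.07. Without control replicate 2 the count was 13, and 1 without control replicate 1, control replicate 3, shKmt2f replicate 1, shKmt2f replicate 3 or shKmt2f replicate 4. H2afx, whose product is phosphorylated around breaks, fell by 0.87 on the log2(TPM + 1) scale (limma adjusted p = 0.0129). Babam2, a subunit of the BRCA1-A complex, fell by 0.59 (adjusted p = 0.0242), and Trp53bp1, which steers breaks to end joining, rose by 0.61 (adjusted p = 0.0445). No gene among the 13 tested Fanconi associates or the 11 resection and resolution genes passed.

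Beside the set, 12 of 43 replication genes fell and none rose (27.9%, median -0.32), among them Rrm2, a ribonucleotide reductase subunit, by 1.02 and Uhrf1, which reads hemimethylated DNA, by 1.19 (limma adjusted p = 0.0129 and 0.0170). The count was 2 without control replicate 3, shKmt2f replicate 1 or shKmt2f replicate 3, 4 without control replicate 1, and 6 without shKmt2f replicate 2 or shKmt2f replicate 4. Of the 22 mitosis genes 11 fell, and their sum was 1690 to 1800 TPM in control and 732 to 1132 TPM in shKmt2f libraries. The sum over the 37 genes of the set was 485 to 570 TPM in control and 490 to 614 TPM in shKmt2f libraries, which overlap. None of 10 end joining genes passed (median 0.36, 5 at an unadjusted p under 0.05 by limma, a level met by 32.3% of all genes tested and by 8 of the 36 genes of the set, 22.2%), and 2 of 28 excision repair genes rose and 2 fell, a total that ranged from 0 to 5 without single libraries. The difference between the set and the replication genes was not tested.

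**Figure D5:**
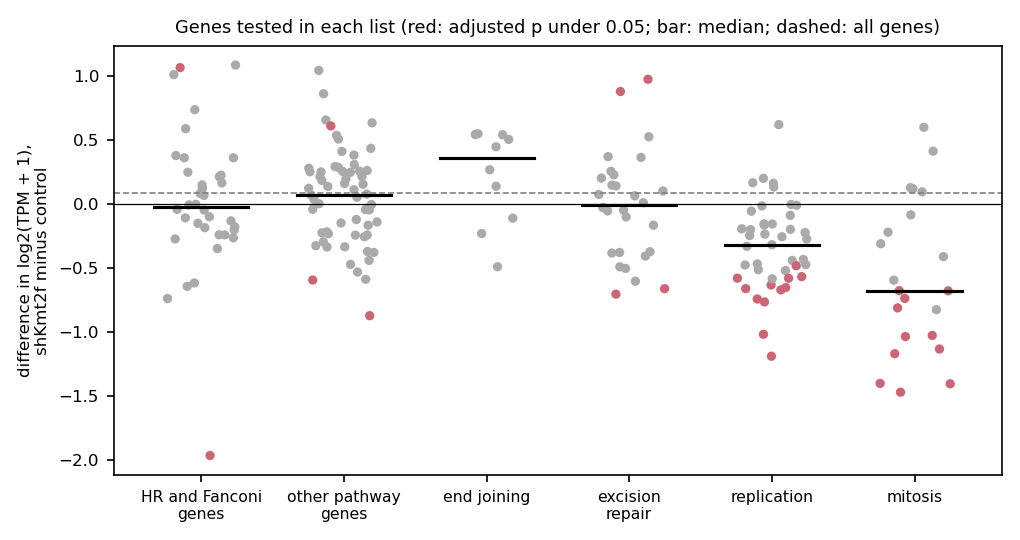
Difference in log2(TPM + 1), shKmt2f minus control, for each gene tested in 6 lists; red marks a limma adjusted p under 0.05, black bars the median and the dashed line the median of all genes. Red points are 2 among the homologous recombination and Fanconi genes and 12 among the replication genes, where the medians are -0.02 and -0.32.

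Cell type markers moved in the same libraries. Of 16 retinal progenitor markers 4 fell and none rose, 6 of 13 neuron markers and 4 of 10 photoreceptor markers rose, where 10.4% of all genes rose and 3.69% fell. Of 7 Müller glia markers tested 1 fell, the glutamine synthetase gene Glul by 0.55 (limma adjusted p = 0.0189), while their median was 0.21 and the sum over all 8 listed overlapped (1177 to 1488 and 1318 to 1554 TPM). The summed photoreceptor markers were at 577 to 804 TPM in control and 1091 to 1425 TPM in shKmt2f libraries, and the progenitor markers at 1816 to 2397 TPM and 1496 to 1714 TPM. Of 22 markers of vascular, microglial, pigment epithelial, lens, astrocyte and blood cells 9 are listed in the tables, 6 of them below 1 TPM in every library, and their sum overlapped (63.7 to 107 and 74.5 to 112 TPM). Among the listed ones Gfap and Pmel were at most 0.236 and 0.255 TPM. The vascular markers Kdr and Cldn5 held most of the sum, at 40.8 to 83.4 and 15.5 to 28.6 TPM over all libraries. The part of cell composition in Rdm1 and Fancm was not tested.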

How the data were processed

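The authors deposited 1 table per library with the TPM of each transcript, and with p-values, q-values and an effect on a natural log scale that are the same in all 7 tables, per the file headers and values. The submitters' processing notes name Salmon 0.11.3, sleuth 0.30.0 and GRCm38.p6. Of 55475 rows, 55404 hold a TPM. TPM totals were 991445 to 992309 per library. The precision given by depth is unknown.

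TPM was summed per gene. Genes reaching 1 TPM in 3 or more libraries entered limma 3.58.1 (R 4.3.3) on log2(TPM + 1) with trend and robust estimation, all 7 libraries in 1 fit, the group as the only term, two-sided, with Benjamini-Hochberg adjustment over 12456 genes and a threshold of 0.05. Fold changes on this scale understate those of low genes. Transcripts were fitted likewise. On simulated data of 12456 genes with this design, 44 of 50 genes changed by 2 and 24 of 50 raised by 1 on the log2 scale were called. The changed genes were drawn from those with a mean log2(TPM + 1) above 2, with independent normal noise. Lower genes and a deviating library are therefore not covered by these shares. Exact permutation tests used log2(TPM + 0.1) and all 35 splits, two-sided. Transcript matches were found with blastn 2.17.0. Strand use in counting is not given in the sources used here.

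The genes and the lists were chosen with earlier results of these data known. Genes past the threshold are given in full, and of the others those with the largest or smallest difference and the highest level of each role. In other lists, up to 6 called genes with the smallest adjusted p were eligible to be named. Alternatives were other scaling, filters, pseudocounts, GC correction (loess, span 0.3), a replicate block, coding transcripts only, length weighting, and leaving out each library. Protein sequences and the Rdm1 promoter were not used here, and 1 gene of the lists is not reported here.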

Additional observations from a re-analysis of the deposited data

Results flagged for a closer look

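Among the 37 genes, the 4 shKmt2f libraries held an outlying library in 3, where chance flags about 1 in 20 groups. Chek2 was at 121.2 TPM in shKmt2f replicate 4, with the nearest of the others at 74.3 TPM. Mre11a was at 54.48 TPM in shKmt2f replicate 2, with the nearest at 42.7 TPM. Brca2 was at 10.73 TPM in shKmt2f replicate 4, with the nearest at 9.45 TPM. In all 3 the outlying library was the highest of its group.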

How the results depend on the processing

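All values here are from limma unless a test is named. The count of the set past the threshold, 2, was 4 with median-ratio scaling, 5 with a replicate block, 4 with protein-coding transcripts only, 5 weighted by transcript length and 1 for the longest coding transcript, and 1 to 8 without single libraries. Rdm1 was called in each, and Fancm in all but the longest coding transcript, the fit without control replicate 1 and GC correction with a replicate block (0.69, adjusted p = 0.104). Calls of all genes, 1755, were 1060 after GC correction and 656 with GC correction and block, and 283 to 3004 without single libraries. Other pathway genes, 3 called, gave 8 with median-ratio scaling, 5 after GC correction, 6 with coding transcripts, 9 by length weighting and 1 to 13 without single libraries. Replication genes, 12 called, gave 20 with median-ratio scaling, 19 by length weighting, 6 with GC correction and block, and 2 to 12 without single libraries. End joining genes, none called, gave 1 by length weighting and 0 to 2 without single libraries. Excision repair genes, 4 called, gave 9 with median-ratio scaling, 8 by length weighting and 0 to 5 without single libraries. Transcripts of the set, 4 called, gave 0 with a replicate block (adjusted p = 0.0858 to 0.106 for the Rdm1 transcripts, at -1.71 to -1.86, and 0.15 for Fancm-204, at 0.92) and 2 to 11 without single libraries. The summed Setd1a difference was -0.78 (adjusted p = 0.0223) by length weighting, -0.11 (0.782) after GC correction, -0.0051 (0.991) with GC and length correction, and -0.14 to -0.44 without single libraries. The Bard1 difference on log2(TPM + 0.1), -0.69, was -0.55 to -0.77 without single libraries. The median of the set lay between -0.17 and 0.07 in all fits, and the median of all genes went from 0.09 to -0.02 with median-ratio scaling. The cause of these changes was not tested.

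Same-numbered libraries correlated by 0.0793, 0.0651 and 0.0597 in their deviations, so the numbers are not taken to pair them. The block raised the calls of the set to 5, with Rad50 and Rbbp8 higher and Fancf lower. Depth is unknown, so levels under 1 TPM such as those of Bard1 are the least certain.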
